A study of Homo sapiens with 12 samples.

Results

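The 2 by 2 interaction of doxycycline and A-485 was measured for every gene in HepG2, a cell line from a human liver tumour that still makes many hepatocyte products. The interaction of a gene is the doxycycline effect in the presence of A-485 (A-485 and Dox minus A-485) minus the doxycycline effect in its absence (Dox minus DMSO), on the log2 scale. A value of 0 means that doxycycline changed the gene by the same fold with and without A-485, a positive value that the level rose more or fell less in A-485-treated cells, and a negative value the reverse. All 13511 genes with an Ensembl identifier were analysed, out of 13511 in the table. Poly(A) RNA was sequenced in 12 libraries of wild-type HepG2, with 3 in each of 4 groups. A-485 and Dox cells had 5 µM A-485 for 1 h and then 5 µM A-485 with 30 µg/ml doxycycline for 24 h. A-485 cells had the same inhibitor schedule without doxycycline. Dox cells had DMSO, the solvent, and then DMSO with 30 µg/ml doxycycline, and DMSO cells had the solvent alone. No group had any other antibiotic, and each compound was used at 1 dose and read at 1 time. Whether replicate libraries stem from separate cultures is not stated, so the p-values rest on a spread between libraries that may be purely technical.

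Doxycycline binds bacterial ribosomes and also slows the ribosomes of mitochondria, which make the core subunits of the respiratory chain. Cells sense this mitochondrial stress and turn on the integrated stress response, in which the transcription factor ATF4 raises genes of amino acid synthesis, amino acid uptake and tRNA charging. CBP (CREBBP) and p300 (EP300) are acetyltransferases that acetylate histones at enhancers and promoters and serve as coactivators of many transcription factors. A-485 blocks their catalytic site, so the interaction asks which part of the transcriptional response to doxycycline differs when this acetylation is inhibited.

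Each library held between 46600324 and 51773300 counts assigned to genes. Dox replicate 1 stood apart: its Spearman correlation with the other Dox libraries was 0.899 and 0.901, and including it raised the typical biological coefficient of variation to 20.7%, against 1.52% without it. The values below therefore come from 11 libraries with Dox replicates 2 and 3, each followed where it matters by the value with all 12. Levels are CPM, each gene's counts relative to a TMM-scaled library total, and the CPM of Dox replicate 1 is scaled among all 12 libraries. All 8 hepatocyte markers were measured, and their summed level ran from 18018 to 18305 CPM in A-485 and Dox, 19756 to 20030 CPM in A-485, 44714 to 44986 CPM in Dox and 55064 to 55509 CPM in DMSO. Markers of other cell types were scarce: 2 of 5 endothelial genes in the table summed to 11.45 to 12.95 CPM with A-485 and 5.73 to 6.25 CPM without, 2 of 4 leukocyte genes to 1.99 to 3.90 CPM and 1 of 5 stromal genes to 0.621 to 6.10 CPM, while 3 of 4 cholangiocyte genes, which hepatoma cells also express, summed to 426 to 521 CPM with A-485 and 950.3 to 1091 CPM without. Their part in the results was not tested. Fewer cells of a type and less RNA per cell cannot be told apart in such bulk samples.

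The doxycycline response was widely but mostly modestly different in A-485-treated cells. At an adjusted p under 0.05 (edgeR quasi-likelihood test, Benjamini-Hochberg over all genes), the interaction was higher than 0 for 2939 genes (21.8% of those tested) and lower for 3597 genes (26.6%), and its median over all genes was -0.02. Which direction held more calls depended on the scaling and the libraries. With library totals in place of TMM the split was 1940 higher and 5226 lower, and with DESeq2 size factors 3301 higher and 3223 lower. Leaving out any 1 of the DMSO libraries or of Dox replicates 2 and 3 gave more higher (3103 to 3393) than lower calls (2616 to 2849), with a median of 0.01. Replicate spread was so small that many called values were slight. The size reached 0.5 in 1459 genes, of which 1247 were called. It reached 1, a 2-fold difference between the fold changes, in 233 genes, of which 200 were called. Beyond 2-fold, 119 genes were called higher (0.881%) and 81 lower (0.6%). With all 12 libraries, 169 genes were called higher (1.25%) and 179 lower (1.32%), and all 348 of them were also called, in the same direction, with 11.

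Doxycycline itself changed most genes little in either setting. In A-485-treated cells 4040 genes were called higher with doxycycline (29.9%) and 4872 lower (36.1%), of which 138 rose (1.02%) and 86 fell (0.637%) beyond 2-fold. Without A-485 4426 genes were called higher (32.8%) and 4496 lower (33.3%), of which 193 rose (1.43%) and 146 fell (1.08%) beyond 2-fold. These effects share no library, and across genes they had a Pearson r of 0.60 and a Spearman rho of 0.52 (n = 13511 genes, which are not independent). Of the 193 genes that rose 2-fold with doxycycline alone, 168 were also called higher with A-485 present, with a median log2 change of 0.91 with A-485 and 1.33 without. Of the 146 that fell 2-fold with doxycycline alone, 90 were also called lower with A-485 present, with medians of -0.46 and -1.33. With A-485 present, 88 of the 193 still rose 2-fold and 34 of the 146 still fell 2-fold. Those genes were chosen by their effect without A-485; chosen instead by the effect with A-485, the 138 that rose had medians of 1.47 with A-485 and 1.37 without, and the 86 that fell had medians of -1.31 and -0.77.

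**Figure D1:**
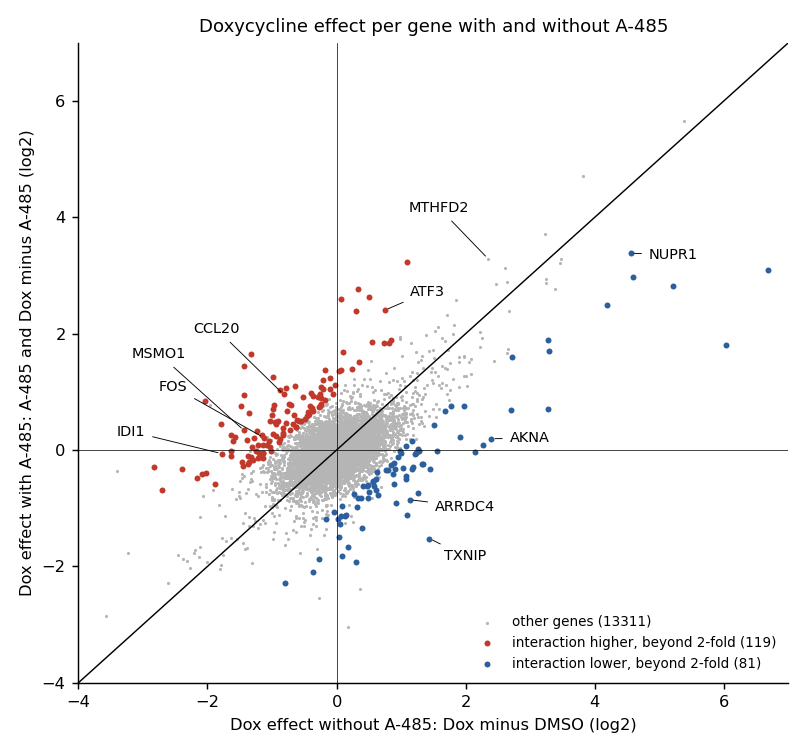
Doxycycline effect (log2) in A-485-treated cells on the vertical axis against the effect without A-485 on the horizontal axis, 1 point per gene, with the line of equal effects. Red points (119 genes) lie above the line and blue points (81 genes) below it, called beyond 2-fold; TXNIP sits at -1.52 with A-485 and 1.44 without.

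The 200 genes called beyond 2-fold were sorted by their doxycycline effects. In 59 genes the larger effect was a fall with doxycycline alone that was smaller, absent or reversed with A-485 (medians 0.09 with A-485, -1.22 alone). In 44 genes the larger effect was a rise with doxycycline alone that was smaller, absent or reversed (medians -0.02 with A-485, 1.33 alone). The larger effect was a rise with A-485 in 42 genes (medians 1.07 with A-485, -0.19 alone) and a fall with A-485 in 25 genes (-1.13 with A-485, 0.14 alone). Without A-485 the change in these genes was smaller, absent or in the other direction. Genes with both effects called, of opposite sign and each at least 0.5 in size were kept apart. In 18 of these doxycycline raised the level with A-485 and lowered it without (medians 0.77 and -0.85). In 12 it lowered the level with A-485 and raised it without (medians -0.71 and 0.77). Genes with a smaller opposite effect, such as MSMO1 (0.34 with A-485) and DEPP1 (0.40 without), were sorted by their larger effect. With all 12 libraries the interaction was called in the same direction for 18 of the 59, 20 of the 44, 15 of the 42, 4 of the 25, 10 of the 18 and 8 of the 12 genes in these classes.

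Cholesterol synthesis and uptake had the largest median interaction of the 33 gene lists examined. The sterol pathway turns acetyl-CoA into cholesterol through mevalonate and squalene, and its enzymes are classic targets of SREBP2, the transcription factor encoded by SREBF2. Of 24 members in the table, 9 were called lower and 5 higher with doxycycline in A-485-treated cells, against 36.1% and 29.9% of all genes. The median log2 change over the list was -0.06. Without A-485, 23 of 24 were called lower, against 33.3% of all genes, with a median of -1.01. The interaction was called higher in 21 of 24 members and lower in 2, against 21.8% and 26.6% of all genes. Beyond 2-fold 11 were higher, against 0.881% of all genes, and the values ran from -0.28 to 1.77, with a median of 0.83 against -0.02 over all genes. With all 12 libraries 7 members were called higher, against 1.25% of all genes, with a median of 0.85. In the 11-library test 1 member, PMVK, was not called.

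MSMO1, the methylsterol oxidase of the late sterol pathway, had 39.8, 38.6 and 40.9 CPM in A-485 and Dox, 32.3, 30.8 and 31.3 CPM in A-485, 55.9 and 54.8 CPM in Dox and 146, 152 and 151 CPM in DMSO. The DMSO libraries were high and all 3 treated groups low, and no groups overlapped. The doxycycline effect on MSMO1 was 0.34 with A-485 and -1.43 without, an interaction of 1.77 ± 0.04 (SE; edgeR adjusted p = 1.7e-37; 1.88 with all 12 libraries, edgeR adjusted p = 1.7e-04). IDI1, which isomerises isopentenyl diphosphate, stood at 36.3, 35.04 and 36.6 CPM in A-485 and Dox, 37.3, 36.96 and 38.4 CPM in A-485, 33.7 and 33.3 CPM in Dox and 119, 112 and 114 CPM in DMSO. The 3 treated groups lay close together, and each was far below DMSO. Of its exon length 14.8% is shared with IDI2-AS1. The IDI1 interaction was 1.72 ± 0.05 (edgeR adjusted p = 1.7e-35), and 1.82 with all 12 libraries (edgeR adjusted p = 1.7e-04). HMGCS1, which makes HMG-CoA, had 31.2, 32.3 and 30.96 CPM in A-485 and Dox, 32.7, 30.8 and 32.3 CPM in A-485, 48.6 and 49.4 CPM in Dox and 149, 154 and 156 CPM in DMSO. The A-485 libraries with and without doxycycline overlapped while Dox was below DMSO, giving an interaction of 1.62; Dox replicate 1, at 9.81 CPM, took the value to 2.06 and the edgeR adjusted p to 0.13. SQLE, squalene epoxidase, and DHCR7, a sterol reductase of the late pathway, were picked after their values were seen. SQLE had 65.1, 61.9 and 60.7 CPM in A-485 and Dox, 67.96, 66.3 and 66.7 CPM in A-485, 103 and 104 CPM in Dox and 265, 269 and 270.2 CPM in DMSO, an interaction of 1.28 that was 1.67 and not called with all 12 libraries. DHCR7 changed by -0.05 with A-485 and -1.14 without, an interaction of 1.09, called also with all 12 libraries.

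A-485 alone lowered most of these genes, with a median log2 change of -1.53 over the list; that comparison shares its libraries with the interaction. STARD4, a cytosolic sterol carrier chosen for description after its values were seen, changed by -0.06 with A-485 alone. It had 50.4, 50.9 and 49.99 CPM in A-485 and Dox, 47.9, 48.2 and 46.3 CPM in A-485, 22.4 and 24.5 CPM in Dox and 50.8, 49.7 and 48.4 CPM in DMSO. Dox alone was the low group for STARD4 and the other 3 groups lay within 46.3 to 50.9 CPM, with an interaction of 1.17 ± 0.05 (edgeR adjusted p = 1.1e-26; edgeR adjusted p = 0.067 with all 12 libraries, where the value was 1.47). SREBF2 itself had an interaction of 0.35 (0.44, not called, with all 12 libraries), a doxycycline effect of 0.25 with A-485 and of -0.10 without. Exons of ACAT2 (52.3%) and CYP51A1 (83.2%) are mostly shared with another gene, so their counts may be incomplete. Of 24 members, 17 had a RefSeq promoter window, and 1 of them, that of SREBF2, held the sterol regulatory element letters TCACNCCAC on either strand, against 1.13% of 35116 promoter windows.

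**Figure D2:**
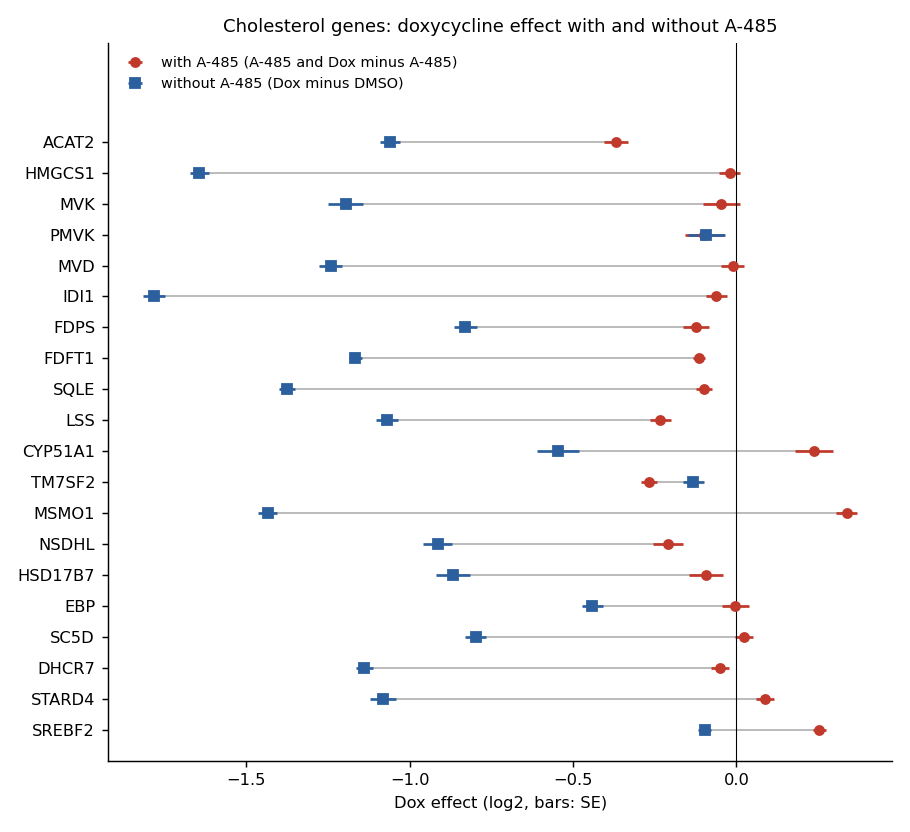
Doxycycline effect (log2, bars SE) of 20 of the 24 cholesterol genes in pathway order from ACAT2 down, red circles with A-485 and blue squares without. Blue squares reach -1.78 (IDI1), whereas red circles lie between -0.37 (ACAT2) and 0.34 (MSMO1).

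Of the genes at a mean log2 CPM of at least 3 and at least 1 CPM in each group, TXNIP had the lowest interaction and its relative ARRDC4 the lowest but for AKNA. TXNIP encodes the thioredoxin-interacting protein, which restrains glucose uptake, and ARRDC4 encodes a related alpha-arrestin; both are known targets of the glucose-sensing factors MondoA and ChREBP, which bind paired E-box-like hexamers. TXNIP had 54.01, 52.6 and 53.7 CPM in A-485 and Dox, 155, 149.7 and 155 CPM in A-485, 75.6 and 77.9 CPM in Dox and 28.1, 28.5 and 28.4 CPM in DMSO. Each compound alone raised TXNIP, A-485 more than doxycycline, but adding doxycycline to A-485 lowered it, and no groups overlapped. The product of the single changes (the A-485 level times the Dox level over the DMSO level) would be 415 CPM. The doxycycline effect was -1.52 with A-485 and 1.44 without, an interaction of -2.96 ± 0.04 (edgeR adjusted p = 5.0e-49). Dox replicate 1 read 43.9 CPM, and with it the interaction was -2.75 (edgeR adjusted p = 5.7e-04). ARRDC4 had 10.4, 10.5 and 10.5 CPM in A-485 and Dox, 19.1, 18.9 and 18.6 CPM in A-485, 7.42 and 6.95 CPM in Dox and 3.20, 3.21 and 3.42 CPM in DMSO. The order of the groups matched that of TXNIP except that Dox alone lay below A-485 and Dox, and the groups again did not overlap. ARRDC4 changed by -0.85 with A-485 and 1.13 without, an interaction of -1.98 ± 0.10 (edgeR adjusted p = 1.6e-23; -1.70 with an edgeR adjusted p = 0.030 with all 12 libraries, where Dox replicate 1 was at 3.13 CPM, no higher than DMSO).

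The promoter windows of both genes are shown because both genes rose with doxycycline alone and fell with doxycycline under A-485. They are RefSeq windows of 250 bases before and 50 after the start on GRCh38.p14, the farthest upstream of 2 starts for TXNIP (chr1:145996530-145996829, minus strand) and the single start for ARRDC4 (chr15:97960453-97960752, plus strand), 5′ to 3′ with motif matches in capitals.
TXNIP: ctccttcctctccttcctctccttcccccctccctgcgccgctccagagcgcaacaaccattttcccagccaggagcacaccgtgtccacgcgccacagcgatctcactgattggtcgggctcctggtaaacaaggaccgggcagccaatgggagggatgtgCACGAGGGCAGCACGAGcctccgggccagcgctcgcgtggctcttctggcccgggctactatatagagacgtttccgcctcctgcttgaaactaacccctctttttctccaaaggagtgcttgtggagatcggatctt
ARRDC4: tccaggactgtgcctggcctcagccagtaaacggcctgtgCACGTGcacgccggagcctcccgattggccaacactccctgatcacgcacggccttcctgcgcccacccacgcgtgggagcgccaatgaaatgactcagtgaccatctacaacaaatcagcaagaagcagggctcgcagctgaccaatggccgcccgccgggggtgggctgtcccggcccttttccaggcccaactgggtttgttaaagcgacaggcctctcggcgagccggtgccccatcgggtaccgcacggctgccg
Capitals in TXNIP mark a pair of E-box-like hexamers CACGNG with 5 bases between them, a pattern that was searched for after this window had been read. That pattern starts 88 bases before the TXNIP start and occurs on either strand in 20 of 35116 promoter windows (0.057%). Capitals in ARRDC4 mark CACGTG, the palindromic E-box, 210 bases before the start, which 7.26% of windows hold. The ARRDC4 window held 0 matches of the paired pattern, and the TXNIP window held 0 of CACGTG. IL1RN and HAL, described below, also rose with doxycycline alone and fell with it under A-485. Their windows held 0 matches of either pattern. These are matches of letters, not shown to be bound in these cells.

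Several other genes that doxycycline raised alone did not rise, or rose less, when A-485 was present. AKNA, an AT-hook protein of centrosomes, had 16.3, 16.6 and 15.8 CPM in A-485 and Dox, 14.2, 14.1 and 14.3 CPM in A-485, 106 and 109 CPM in Dox and 21.6, 19.1 and 20.5 CPM in DMSO. Only Dox alone was high for AKNA, giving an interaction of -2.20 ± 0.06 (edgeR adjusted p = 1.6e-35; -2.02 with an edgeR adjusted p = 0.0021 with all 12 libraries). ARHGEF2, a microtubule-associated RhoA activator, had 212, 215 and 209 CPM in A-485 and Dox, 181, 181 and 180.3 CPM in A-485, 145 and 149 CPM in Dox and 37.7, 38.9 and 39.99 CPM in DMSO. Every treated group exceeded DMSO, and doxycycline added 0.23 with A-485 but 1.92 without, an interaction of -1.69 (-1.57 with all 12 libraries, edgeR adjusted p = 5.2e-04). GPAM, the mitochondrial acyltransferase of triglyceride synthesis, fell with doxycycline under A-485 (-0.23) and rose without (1.33). GPAM levels were 5.54, 5.40 and 5.39 CPM in A-485 and Dox, 6.402, 6.53 and 6.26 CPM in A-485, 145 and 148 CPM in Dox and 57.6, 58.8 and 57.5 CPM in DMSO, but Dox replicate 1 was at 52.6 CPM, below DMSO, and the interaction of -1.57 lost its call with all 12 (edgeR adjusted p = 0.19). CHCHD10, a protein of the mitochondrial intermembrane space, was not called with A-485 (-0.02) and rose without (1.28), but Dox replicate 1 gave 319 CPM in contrast to 100.2 and 104 CPM in the other Dox libraries, and the call was lost with all 12 libraries (-2.10, edgeR adjusted p = 0.085).

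In other genes doxycycline lowered the level mainly when A-485 was present. DEPP1, a regulator of autophagy, had 6.36, 6.45 and 5.61 CPM in A-485 and Dox, 15.9, 15.03 and 15.8 CPM in A-485, 68.5 and 66.8 CPM in Dox and 52.5, 49.7 and 51.6 CPM in DMSO. Doxycycline lowered DEPP1 with A-485 (-1.34) and raised it without (0.40), an interaction of -1.74 ± 0.06 (edgeR adjusted p = 2.2e-29; -1.98 with an edgeR adjusted p = 0.0025 with all 12 libraries). IL1RN, the interleukin-1 receptor antagonist, had 1.14, 1.40 and 1.62 CPM in A-485 and Dox, 2.57, 2.47 and 2.10 CPM in A-485, 107 and 108 CPM in Dox and 68.7, 68.03 and 68.5 CPM in DMSO. The A-485 groups of IL1RN were low throughout, and its interaction was -1.43 (-1.73 with all 12 libraries, edgeR adjusted p = 0.019). HAL, the histidine-degrading enzyme of liver, showed the same signs, with -0.55 with A-485, 0.57 without and an interaction of -1.11. SOX4, a developmental transcription factor, fell with A-485 (-1.11) and rose slightly without (0.14). TNFRSF21, a death receptor, was at -0.61 with A-485 and 0.49 without, an interaction of -1.09. With all 12 libraries the interaction of TNFRSF21 was -0.91 (edgeR adjusted p = 0.0497), and its doxycycline effect without A-485 was 0.31, not called. NRP1, a semaphorin and VEGF co-receptor, fell with A-485 (-0.96) and was not called without (0.08). With all 12 libraries HAL was called (edgeR adjusted p = 0.0032). The interaction of SOX4 was -1.26 with 11 libraries and -1.92, not called, with 12 (edgeR adjusted p = 0.077), and that of NRP1 was -1.04 with 11 and -0.68, not called, with 12 (edgeR adjusted p = 0.46).

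The highest interactions outside the sterol pathway included secreted and stress-induced genes. CCL20, a chemokine that attracts lymphocytes and dendritic cells, had 19.3, 20.3 and 20.03 CPM in A-485 and Dox, 9.99, 10.5 and 10.3 CPM in A-485, 256 and 252 CPM in Dox and 449.9, 445 and 449.6 CPM in DMSO. A-485 groups were far below the others, and within them doxycycline raised CCL20 (0.95), while without A-485 it lowered it (-0.82). The interaction was 1.77 ± 0.04 (edgeR adjusted p = 1.2e-36), and 1.69 with all 12 libraries (edgeR adjusted p = 8.0e-05). ANKRD1, a transcriptional cofactor induced by YAP, also rose with A-485 (1.11) and fell without (-0.64), at 13.5, 14.3 and 14.8 CPM in A-485 and Dox, 6.79, 6.83 and 6.13 CPM in A-485, 10.99 and 12.03 CPM in Dox and 17.96, 19.2 and 16.9 CPM in DMSO, an interaction of 1.75 (edgeR adjusted p = 2.9e-04 with all 12 libraries). ADM, which encodes the vasodilator adrenomedullin, had 154, 154 and 149 CPM in A-485 and Dox, 103, 109 and 111 CPM in A-485, 32.5 and 32.4 CPM in Dox and 60.2, 60.1 and 61.8 CPM in DMSO. Both A-485 groups were above both groups without it, doxycycline changed ADM by 0.50 with A-485 and -0.90 without, and the interaction of ADM was 1.41 with 11 and 1.41 with 12 libraries. LIF, a cytokine of the interleukin-6 family, rose by 1.38 with A-485 and was not called without (0.07), with 81.7, 81.3 and 80.5 CPM in A-485 and Dox, 31.2, 31.7 and 30.8 CPM in A-485, 13.4 and 14.2 CPM in Dox and 13.6, 13.4 and 12.5 CPM in DMSO. GPSM1, a G-protein signalling modulator, rose by 1.08 with A-485 and was not called without (-0.24; interaction edgeR adjusted p = 0.067 with all 12 libraries). CDKN1A, the cell cycle inhibitor p21, rose with A-485 (0.80) and fell without (-0.25), an interaction of 1.04 that was 0.71 with all 12 (edgeR adjusted p = 0.24). For LCN15, a lipocalin, and HIST1H1C, a linker histone, the high value rested on the choice of Dox libraries. LCN15 read 89.3 CPM in Dox replicate 1 and 16.5 and 17.2 CPM in replicates 2 and 3, and its interaction was 1.68 with 11 and 0.37 with 12 libraries. HIST1H1C read 26.4 CPM in Dox replicate 1 and 8.90 and 8.10 CPM in the others, with 1.67 and 0.88.

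**Figure D3:**
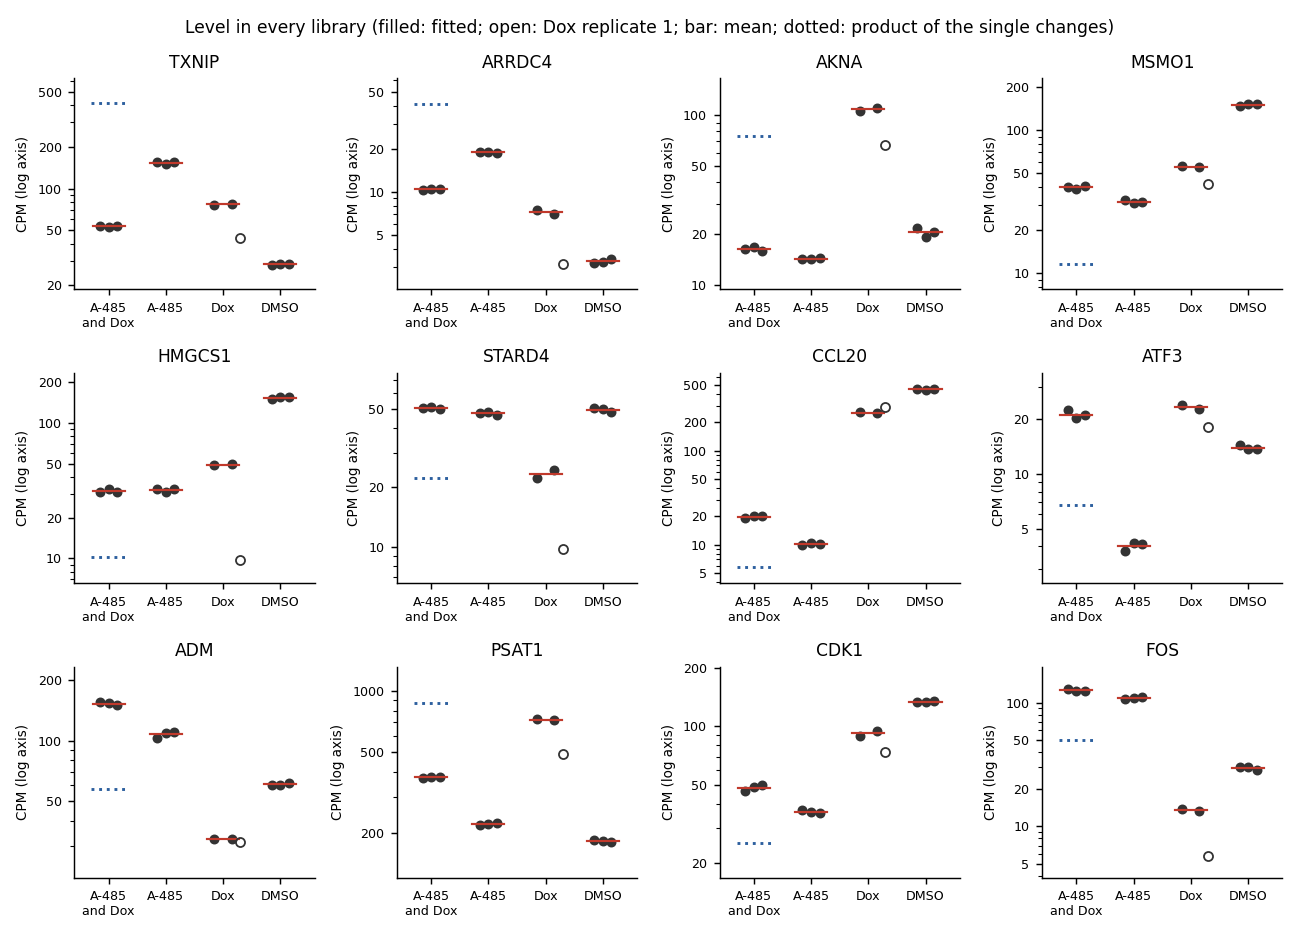
CPM on log axes in every library of 12 genes, groups A-485 and Dox, A-485, Dox and DMSO from left to right; filled points were fitted, open points are Dox replicate 1, red bars are means and the blue dotted bar is the product of the single changes. TXNIP in A-485 and Dox lies far under its dotted bar (415 CPM), whereas MSMO1 lies above its bar (11.6 CPM).

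Immediate early genes, which respond within minutes to signals through kinases, mostly had positive interactions. Of 21 measured, 14 were called higher, of which 6 beyond 2-fold, and 3 lower, against 21.8%, 0.881% and 26.6% of all genes, with a median of 0.47; with all 12 libraries 6 were higher and 1 lower. DUSP1, a phosphatase that switches off MAP kinases, had 112, 109.7 and 110.0 CPM in A-485 and Dox, 58.7, 58.2 and 59.7 CPM in A-485, 57.2 and 54.96 CPM in Dox and 81.1, 79.5 and 81.05 CPM in DMSO. A-485 and Dox was the highest group for DUSP1, and its interaction was 1.43 ± 0.04 (edgeR adjusted p = 5.3e-36; 1.48 with an edgeR adjusted p = 8.0e-05 with all 12 libraries). FOS, a subunit of AP-1, had 129, 124 and 124 CPM in A-485 and Dox, 107, 109 and 110.3 CPM in A-485, 13.9 and 13.4 CPM in Dox and 30.4, 30.4 and 28.7 CPM in DMSO. The A-485 groups of FOS were the high ones, doxycycline raised FOS with A-485 (0.21) and lowered it without (-1.13), and the interaction was 1.34 ± 0.05 (edgeR adjusted p = 4.2e-28; 1.64 with an edgeR adjusted p = 0.039 with all 12 libraries). FOSB, another AP-1 subunit, was at 1.41, from 2.76, 2.59 and 2.72 CPM in A-485 and Dox, 1.25, 1.15 and 1.11 CPM in A-485, 0.784 and 0.825 CPM in Dox and 1.02, 0.939 and 0.845 CPM in DMSO. JUN, also of AP-1, and ZFP36, which destabilises AU-rich mRNAs, were picked after their values were seen and were at 1.05 and 1.13; JUN was not called with all 12 libraries (1.30). EGR1, a zinc-finger factor, was raised by doxycycline in both settings (0.44 with A-485, 0.33 without), and A-485 alone raised it by 4.89. KLF2, a Krüppel-like factor, had 39.9, 37.7 and 36.6 CPM in A-485 and Dox and 11.6, 12.95 and 13.5 CPM in A-485, against at most 0.239 CPM in any library without A-485, and with so few reads there its interaction of 0.08 ± 1.02 was not called. MYC, a growth-promoting transcription factor, was the member called lower with all 12 libraries: doxycycline lowered it slightly with A-485 (-0.14) and raised it without (0.53), an interaction of -0.66, and DUSP4, another MAP kinase phosphatase, was at -0.74 (-0.81, not called, with 12).

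The ATF4 programme was induced by doxycycline with and without A-485, and its members had interactions of either sign. Of 22 measured genes, 21 were called higher with doxycycline in A-485-treated cells and 22 without A-485, against 29.9% and 32.8% of all genes. The median log2 changes were 1.75 and 1.70. The interaction was called higher in 7, of which 1 beyond 2-fold, and lower in 12, of which 3 beyond 2-fold, with a median of -0.27. Over all genes 21.8% were called higher and 26.6% lower, 0.881% and 0.6% beyond 2-fold; with all 12 libraries 4 were higher and 1 lower. ATF4 had 588, 597 and 585 CPM in A-485 and Dox, 117, 117 and 119 CPM in A-485, 595 and 590.4 CPM in Dox and 184, 180.2 and 178 CPM in DMSO. The A-485 and Dox and the Dox libraries overlapped for ATF4 while A-485 lay below DMSO, an interaction of 0.61 ± 0.03 (edgeR adjusted p = 5.2e-26; 0.58 with an edgeR adjusted p = 0.0083 with all 12 libraries). ATF3, a repressor induced by ATF4, also had A-485 as its lowest group, with 22.4, 20.3 and 20.99 CPM in A-485 and Dox, 3.74, 4.16 and 4.13 CPM in A-485, 24.1 and 22.9 CPM in Dox and 14.4, 13.7 and 13.8 CPM in DMSO. Doxycycline raised ATF3 by 2.40 with A-485 and 0.75 without, an interaction of 1.65 (1.75 with all 12, edgeR adjusted p = 2.9e-04). PPP1R15A, the phosphatase subunit that ends the response, was at 0.70, and at 0.46 with all 12 libraries, where it was not called (edgeR adjusted p = 0.35).

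Members with a smaller rise included several that ATF4 and CHOP drive. CHAC1, which degrades glutathione, was scarce: 4.10, 4.18 and 4.49 CPM in A-485 and Dox, 0.624, 0.476 and 0.511 CPM in A-485, 3.53 and 3.08 CPM in Dox and 0.145, 0.198 and 0.0667 CPM in DMSO. A-485 and Dox was the highest group and A-485 lay above DMSO, so the rise was 2.98 with A-485 and 4.60 without and the interaction -1.62 ± 0.36 (edgeR adjusted p = 1.6e-04; edgeR adjusted p = 0.066 with all 12 libraries). The CHAC1 promoter window (chr15:40953221-40953520, plus strand, GRCh38.p14, RefSeq) is shown because it carries the letters TGATGNAA of a C/EBP-ATF response element, in capitals on the reverse strand, 209 bases before the start.
CHAC1: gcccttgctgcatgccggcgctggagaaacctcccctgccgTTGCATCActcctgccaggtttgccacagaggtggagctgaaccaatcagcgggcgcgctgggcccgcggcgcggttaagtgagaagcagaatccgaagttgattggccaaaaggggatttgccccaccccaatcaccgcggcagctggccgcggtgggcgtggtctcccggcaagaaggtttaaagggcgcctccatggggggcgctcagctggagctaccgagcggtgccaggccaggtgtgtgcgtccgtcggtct
These letters occur in 3.62% of all promoter windows (both strands searched) and in 2 of the 20 windows found for the 22 genes of the ATF4 list. The other is that of ATF3, 191 bases before its start, and the interaction of ATF3 had the opposite sign (1.65). NUPR1, a small stress-induced nuclear protein, had 15.9, 17.2 and 16.8 CPM in A-485 and Dox, 1.75, 1.52 and 1.52 CPM in A-485, 23.8 and 25.3 CPM in Dox and 1.09, 0.840 and 1.18 CPM in DMSO. NUPR1 rose by 3.38 with A-485 and 4.55 without, its interaction was -1.17 ± 0.16, and Dox replicate 1 was at 105 CPM, so that the call was lost with all 12 libraries (-2.27, edgeR adjusted p = 0.18). ATF5, a factor of the mitochondrial stress response, had 24.9, 25.2 and 24.6 CPM in A-485 and Dox, 25.7, 25.8 and 26.2 CPM in A-485, 36.7 and 37.1 CPM in Dox and 17.99, 18.6 and 18.6 CPM in DMSO. ATF5 was the list's exception: the doxycycline effect was not called with A-485 (-0.06) and was 1.00 without, and the interaction of -1.06 was -1.68 and not called with all 12 libraries (edgeR adjusted p = 0.092). SESN2, an mTORC1 inhibitor, was at -0.92, with 1.74 with A-485 and 2.66 without, and kept its call with all 12 libraries (-0.84, edgeR adjusted p = 0.0043). TRIB3, a pseudokinase that dampens ATF4, was at -0.54 and DDIT3, which encodes CHOP, at -0.28; with all 12 libraries they were at -0.81 and -1.32, and neither was called. On the linear CPM scale the difference between the doxycycline effects of CHAC1, SESN2 and DDIT3 had the other sign.

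Among the hormones that stressed cells secrete, 4 of 5 had a higher interaction, against 21.8% of all genes, with a median of 0.68, and 3 of them (INHBE, STC2 and VEGFA) kept the call with all 12 libraries. STC2, VEGFA and ADM2 are also counted in the ATF4 list above. GDF15, which reduces appetite through the brainstem, had 679, 671 and 651 CPM in A-485 and Dox, 250.4, 258 and 264 CPM in A-485, 819 and 803 CPM in Dox and 582, 570.1 and 585 CPM in DMSO. A-485 was the low group for GDF15, the doxycycline effect was 1.37 with A-485 and 0.49 without, and the interaction was 0.89 ± 0.03 (edgeR adjusted p = 8.8e-33; 0.55 with an edgeR adjusted p = 0.38 with all 12 libraries, where Dox replicate 1 read 1404 CPM). INHBE, a liver activin subunit, had 19.4, 19.9 and 19.2 CPM in A-485 and Dox, 0.713, 0.759 and 0.767 CPM in A-485, 108 and 115 CPM in Dox and 7.85, 7.34 and 8.58 CPM in DMSO. A-485 lowered INHBE with and without doxycycline, so that the fold rise was larger with A-485 (4.70, against 3.81 without) although the CPM gained was smaller. STC2, a stanniocalcin, was at 0.59 and VEGFA, the angiogenic factor, at 0.68, and ADM2, a peptide related to adrenomedullin, at -0.26 (-0.54, not called, with all 12 libraries), with the other sign on the linear scale.

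Amino acid supply genes mostly rose with doxycycline in both settings: 11 of 14 genes of serine, one-carbon, proline and asparagine synthesis rose with A-485 and 11 without, and 10 of 10 amino acid transporters rose with A-485 and 8 without. Over all genes doxycycline was called to raise 29.9% with A-485 and 32.8% without. In the synthesis list 7 had a higher and 4 a lower interaction (1 and 1 with all 12 libraries), and among the transporters 7 were higher and 2 lower (2 were higher with all 12), against 21.8% higher and 26.6% lower over all genes. PSAT1, the aminotransferase of serine synthesis, had 374, 377 and 375 CPM in A-485 and Dox, 219, 221 and 225 CPM in A-485, 723 and 716 CPM in Dox and 184, 182 and 180.2 CPM in DMSO. It rose in both settings, by 0.76 with A-485 and 1.98 without, an interaction of -1.22 ± 0.03 (edgeR adjusted p = 2.6e-40; -1.07 with an edgeR adjusted p = 0.012 with all 12 libraries). MTHFD2, the mitochondrial folate enzyme, went the other way, with 227, 232 and 235 CPM in A-485 and Dox, 24.5, 23.4 and 23.1 CPM in A-485, 397 and 401 CPM in Dox and 79.8, 78.1 and 77.6 CPM in DMSO. Its interaction was 0.94 (1.16 with all 12, edgeR adjusted p = 0.041), and 33.2% of its exon length is shared with another gene. PHGDH and SHMT2, which start serine synthesis and pass its carbon to folate, were at 0.52 and 0.29, and ASNS, asparagine synthetase, at -0.61. ASNS was scarce, with means of 0.49 CPM in A-485 and 0.47 CPM in DMSO, and its value less certain (SE 0.26, edgeR adjusted p = 0.044). Of the ASNS exon length 44.6% is shared with another gene. PHGDH, SHMT2 and ASNS were not called with all 12 libraries. There PHGDH was at 0.06 (edgeR adjusted p = 0.93), SHMT2 at -0.14 and ASNS at -0.61. For PHGDH Dox replicate 1 was at 1055 CPM and the other Dox libraries at 515 and 504 CPM. SLC7A5, the transporter of large neutral amino acids, had 424, 415 and 409 CPM in A-485 and Dox, 116, 117 and 118 CPM in A-485, 1312 and 1311 CPM in Dox and 782, 796 and 792 CPM in DMSO. The A-485 groups were low for SLC7A5 and the rise larger within them (1.83, against 0.73 without), an interaction of 1.10 ± 0.03 (edgeR adjusted p = 3.3e-38; 1.17 with an edgeR adjusted p = 8.0e-04 with all 12 libraries). SLC3A2, its partner subunit, was at 1.04 but 0.54 with all 12 libraries (edgeR adjusted p = 0.47). SLC1A4, a neutral amino acid carrier, was at 0.46, SLC7A11, the cystine importer, at -0.38 and SLC43A1, a leucine carrier, at -0.18. SLC7A11 (-0.24) and SLC43A1 (-0.18) were not called with 12 libraries. For INHBE, MTHFD2, PHGDH, SHMT2, SLC7A5 and SLC1A4 the CPM difference between the doxycycline effects had the other sign.

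The cytosolic aminoacyl-tRNA synthetases, which charge tRNAs, leaned to smaller rises with A-485. Of 20 measured, 17 had a lower interaction and 3 a higher one, against 26.6% and 21.8% of all genes, but the values were small, with a median of -0.17 and 0 members beyond 2-fold. SARS had 192, 198 and 199 CPM in A-485 and Dox, 94.3, 97.6 and 97.2 CPM in A-485, 311 and 313 CPM in Dox and 92.8, 91.3 and 91.2 CPM in DMSO. The rise of SARS was 1.02 with A-485 and 1.76 without, an interaction of -0.74 ± 0.03 (edgeR adjusted p = 2.5e-27; edgeR adjusted p = 0.070 with all 12 libraries). AARS was at -0.58 and was the member still called with all 12 libraries (-0.60, edgeR adjusted p = 0.0060). MARS was at -0.52, GARS at -0.36 and DARS, for which doxycycline alone was not called, at 0.10; with 12 libraries these 3 were at -0.45, -0.32 and -0.39, not called.

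Mitochondrial transcripts responded strongly to doxycycline, in the same direction in both settings. All 13 mitochondrial mRNAs were called lower with doxycycline with A-485 and without it, against 36.1% and 33.3% of all genes. The median log2 changes were -1.60 and -1.71. Their interaction was called higher in 7 and lower in 3, against 21.8% and 26.6% of all genes. The values lay between -0.16 and 0.50, with a median of 0.09. With all 12 libraries 0 were called by edgeR and the median was -0.59. At an unadjusted p under 0.05 in that fit there were 0 of these mRNAs and 2067 of all 13511 genes. MT-CO1, a core subunit of cytochrome oxidase, had 4052, 4069.5 and 4090.1 CPM in A-485 and Dox, 13766, 14041 and 14049.6 CPM in A-485, 3667 and 3918 CPM in Dox and 17569, 17626 and 17558 CPM in DMSO. The groups did not overlap, and both doxycycline groups were far below the others, with -1.78 with A-485, -2.21 without and an interaction of 0.44 ± 0.02 (edgeR adjusted p = 1.7e-21; 0.13 with an edgeR adjusted p = 0.78 with all 12 libraries). MT-ND4 and MT-ND4L, complex I subunits on a shared transcript, were at 0.50 and 0.45, MT-ND6 at 0.33, MT-ND1 at 0.11 and MT-CYB, of complex III, at -0.16; with all 12 libraries they were at -0.29, 0.15, -0.06, -0.49 and -0.89, and on the linear scale MT-CYB had the other sign. The mitochondrial rRNAs rose in poly(A) RNA in both settings. MT-RNR1, the small-subunit rRNA, had 11627, 11998 and 11769 CPM in A-485 and Dox, 890.2, 896 and 907 CPM in A-485, 14177 and 14142 CPM in Dox and 1522, 1516 and 1517 CPM in DMSO, with Dox replicate 1 at 42359.6 CPM. Its rise was 3.72 with A-485 and 3.22 without, and MT-RNR2, the large-subunit rRNA, rose by 1.85 and 1.16. The rRNA interactions, 0.49 and 0.69, were -0.27 and 0.00 with all 12 libraries, not called. Mitochondrial chaperones and proteases hardly differed: of 17, 6 had a higher and 4 a lower interaction, against 21.8% and 26.6% of all genes, between -0.27 (HSPA9, the matrix HSP70) and 0.33 (GRPEL2, its exchange factor). The chaperonin genes HSPD1 (0.07) and HSPE1 (0.20, not called), LONP1 (-0.18) and CLPP (0.09, not called), which encode matrix proteases, and TFAM (0.07, not called), which packages mitochondrial DNA, lay within this range; HSPD1 had the other sign with library totals. None of the 17 was called with all 12 libraries by edgeR (4 at an unadjusted p under 0.05), where HSPD1 was at 0.21 and LONP1 at -0.28.

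Mitotic genes had interactions all of the same sign, with a median of 0.69. With doxycycline under A-485 17 of 21 measured members were called higher and 2 lower (median 0.22), whereas without A-485 all 21 were called lower (median -0.41). Over all genes 29.9% were called higher and 36.1% lower with doxycycline under A-485, and 32.8% and 33.3% without. The interaction was called higher in 21 of 21, between 0.33 and 0.95, against 21.8% of all genes, with 0 beyond 2-fold; with all 12 libraries 8 were called higher and the median was 0.72. CDK1, the kinase that drives mitotic entry, had 46.5, 48.9 and 50.1 CPM in A-485 and Dox, 37.4, 36.5 and 35.98 CPM in A-485, 89.1 and 95.1 CPM in Dox and 134, 134 and 135 CPM in DMSO. DMSO was highest and A-485 lowest for CDK1, without overlap, and the interaction was 0.95 ± 0.04 (edgeR adjusted p = 3.6e-26; 1.03 with an edgeR adjusted p = 0.0026 with all 12 libraries). DLGAP5, a spindle protein, was at 0.77 and KIF20A, a kinesin of cytokinesis, at 0.73, both still called with all 12 libraries; NUSAP1, at 0.90, has 62.2% of its exons overlapped by AC087721.2, and its interaction was 0.06 with all 12 libraries (edgeR adjusted p = 0.95; Dox replicate 1 at 18.2 CPM, the other Dox libraries at 5.46 and 5.60 CPM). Genes of DNA replication and S phase shifted less: 25 of 28 had a higher interaction, against 21.8% of all genes, with a median of 0.37. Doxycycline was called to raise 13 and lower 6 of them under A-485, and to raise 2 and lower 21 without. With all 12 libraries 0 were called by edgeR (7 at an unadjusted p under 0.05). RRM2, a subunit of ribonucleotide reductase, was at 1.17 ± 0.03, with 93.8, 95.4 and 99.6 CPM in A-485 and Dox, 55.6, 57.2 and 58.1 CPM in A-485, 113 and 113 CPM in Dox and 151, 152 and 151 CPM in DMSO, and Dox replicate 1 at 214 CPM. CDC6 and RFC3, which load the replicative helicase and the sliding clamp, were at 0.66 and 0.66, and CCNE2, cyclin E2, at 0.74. In the 12-library fit RRM2, CDC6, RFC3 and CCNE2 were at 0.78, 0.86, 0.90 and 1.23.

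Hepatocyte transcription factors and nuclear receptors had mainly lower interactions, on levels that A-485 alone had brought down (median -1.46). Of 19 measured, 14 were called lower and 2 higher, against 26.6% and 21.8% of all genes, with a median of -0.23 and 0 beyond 2-fold; with all 12 libraries 1, NR1H4, was called, higher. PPARGC1A, the coactivator of gluconeogenesis and mitochondrial biogenesis, had 5.76, 5.98 and 5.34 CPM in A-485 and Dox, 6.19, 5.22 and 5.09 CPM in A-485, 91.2 and 92.6 CPM in Dox and 50.8, 48.3 and 47.7 CPM in DMSO. The doxycycline effect on PPARGC1A was 0.05 with A-485, not called, and 0.91 without, an interaction of -0.86; Dox replicate 1, at 29.3 CPM, lay below DMSO. NR0B2, the bile acid-induced repressor SHP, was at -0.93, CEBPA, a liver-enriched factor with 43.4% of its exon length shared, at -0.90 and HNF4A, the master regulator of hepatocyte genes, at -0.35. In the 12-library fit PPARGC1A was at -0.50, NR0B2 at -1.44, CEBPA at -0.79 and HNF4A at -0.25, none of them called. NR1H4, which encodes the bile acid receptor FXR, went the other way at 0.54, with 3.55, 3.97 and 3.75 CPM in A-485 and Dox, 0.767, 0.970 and 0.858 CPM in A-485, 111 and 111 CPM in Dox and 37.5, 38.5 and 35.8 CPM in DMSO. ALB, albumin, had 5345, 5388 and 5399 CPM in A-485 and Dox, 4759, 4770.1 and 4745 CPM in A-485, 15898 and 15736 CPM in Dox and 22005, 21627 and 21781 CPM in DMSO. Doxycycline raised ALB slightly with A-485 (0.18) and lowered it without (-0.46). Its interaction was 0.64 ± 0.02 (edgeR adjusted p = 4.1e-32, and edgeR adjusted p = 0.026 with all 12 libraries). ALB did not stand for secreted hepatocyte proteins in general. Of 24 measured, 7 had a higher and 9 a lower interaction, with a median of -0.02 and values from -0.46 to 0.64. With doxycycline under A-485, 2 of the 24 were called higher and 19 lower, against 29.9% and 36.1% of all genes.

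Genes of gluconeogenesis and glycolysis other than TXNIP, ARRDC4 and G6PC had modest interactions. Of the 21 in this list 11 were called higher and 7 lower, against 21.8% and 26.6% of all genes, with a median of 0.09; with all 12 libraries 0 were called higher by edgeR and 2 lower (7 of the 21 at an unadjusted p under 0.05), with a median of -0.24. TXNIP and ARRDC4 were the 2 called, and the 3 lower beyond 2-fold with 11 libraries were TXNIP, ARRDC4 and G6PC. PCK1, the rate-limiting enzyme of gluconeogenesis, fell in both settings, by more with A-485 (-1.54) than without (-0.76), and was at -0.78. G6PC, which releases glucose from the liver cell, was at -1.08 ± 0.28, on levels of 0.214 to 0.529 CPM in the A-485 groups and 39.6 to 56.5 CPM in the groups without A-485. HK1, a hexokinase, was at 0.45. With 12 libraries PCK1 was at -0.42 (edgeR adjusted p = 0.63), G6PC at -1.01 (edgeR adjusted p = 0.11) and HK1 at 0.54, none of them called. On the linear scale PCK1, HK1, NR0B2 and NR1H4 had the other sign. Histone acetylation genes, including the targets of A-485, had 7 of 25 members called higher and 9 lower, against 21.8% and 26.6% of all genes. CREBBP was at -0.08 and EP300 at -0.13, both of the other sign with all 12 libraries (0.20 and 0.25). BRD3, a reader of acetylated histones, was at -0.28 and the deacetylase genes HDAC7, HDAC5 and HDAC11 at -0.46, 0.23 and 0.22 (HDAC5 and HDAC11 of the other sign with all 12 libraries); with all 12 libraries 0 of the 25 were called by edgeR (4 at an unadjusted p under 0.05).

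**Figure D4:**
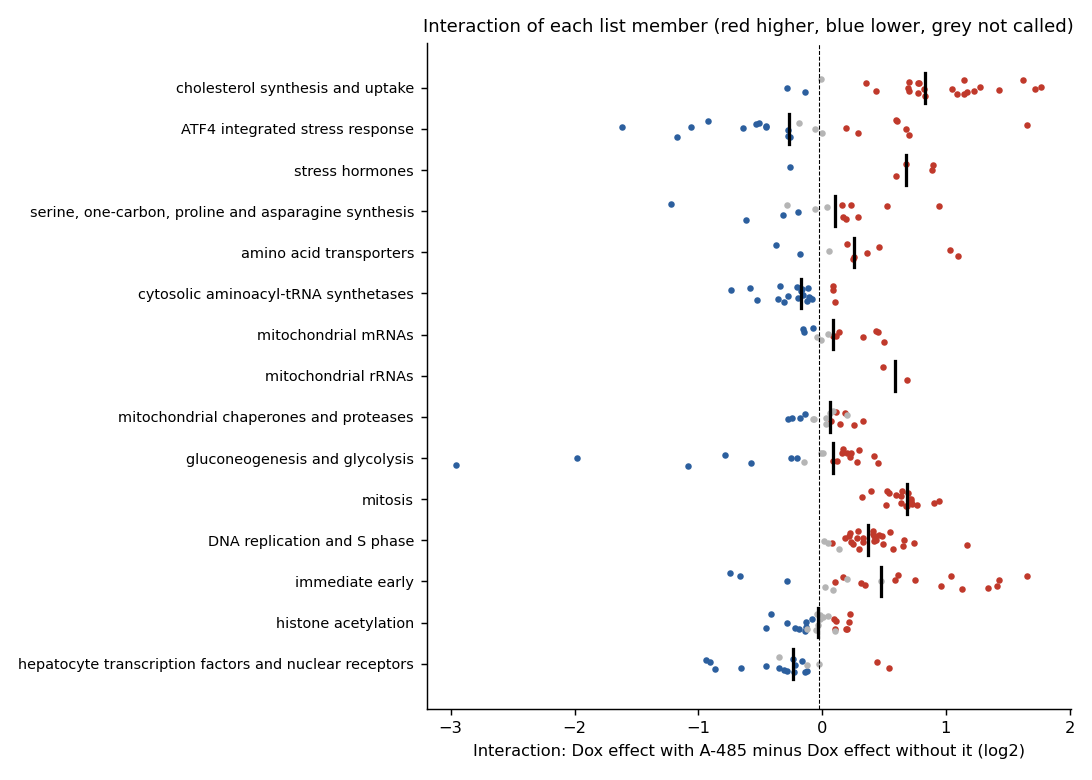
Interaction (log2) of each member of 15 gene lists, 1 point per gene, red called higher, blue called lower and grey not called; black bars are list medians and the dashed line is the median of all genes. Medians run from -0.27 (ATF4 programme) to 0.83 (cholesterol), and the far left point is TXNIP.

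Dox replicate 1 widened the standard errors and decided many calls. Of the 99 genes named by rule and reported here, 95 were called with 11 libraries and 34 with 12. Of the 119 genes higher and 81 lower beyond 2-fold, 43 and 32 were called the same way with all 12.

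**Figure D5:**
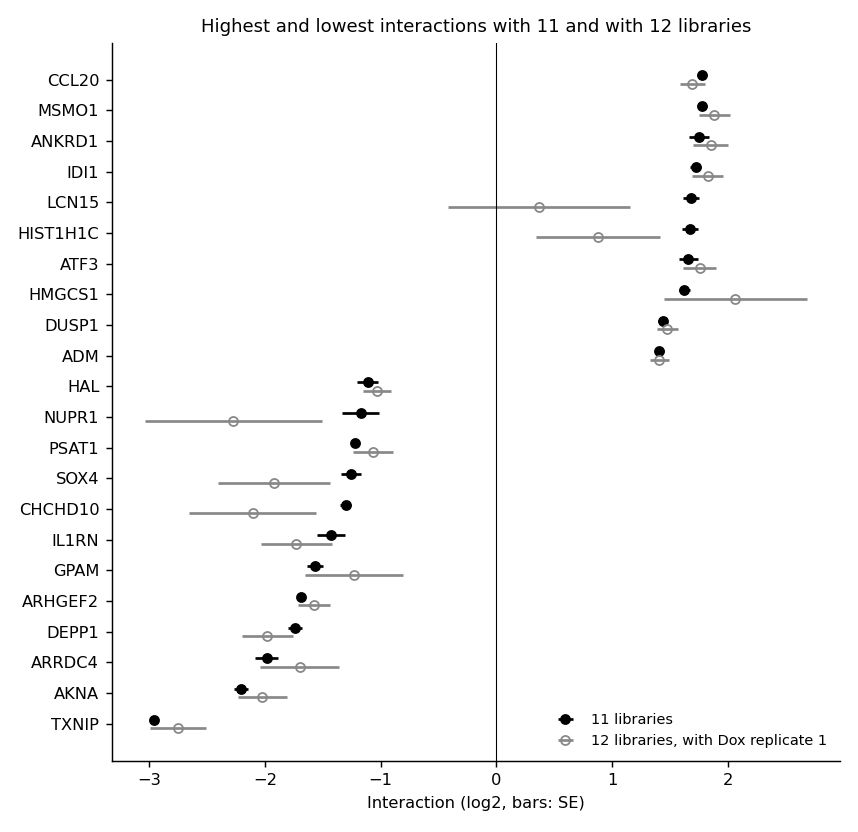
Interaction (log2, bars SE) of 10 of the 12 highest and all 12 lowest genes among called genes that pass the level filter and have the same sign with all 12, filled points with 11 libraries and open points with all 12. TXNIP is lowest with either set (-2.96 and -2.75), while LCN15 moves to 0.37.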

How the data were processed

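The authors deposited a table of raw counts per gene for 12 libraries; per the submitters' processing notes STAR 2.6.0a, HTSeq 0.10.0 and GRCh38 were used, and no source used here gives the strand setting, so overlapping genes cannot be told apart by strand. All 13511 genes were fitted with edgeR 4.0.16 in R 4.3.3 (TMM, robust quasi-likelihood, 1 coefficient per group, 11 libraries), with p-values adjusted over all genes; 4 entries without a gene were left out (ambiguous reads 9.10% to 12.3% of all counts in the table). Exon overlaps come from GENCODE release 29. Alternatives were all 12 libraries, library totals, DESeq2 1.42.0, limma 3.58.1, level filters, a replicate block, the linear scale and each library left out. On simulated counts for 200 changed among 13511 genes, the fit recovered 97% of those changed by a log2 interaction of 1 and called 0.105% of the unchanged ones. The simulated spread was that of these 11 libraries. These rates therefore do not cover variation between cultures or a deviating library such as Dox replicate 1. Named genes were the 12 highest and 12 lowest called interactions at a mean log2 CPM of at least 3 and at least 1 CPM in each group with the same sign with all 12 libraries, 4 per response class, up to 4 called members and 1 opposite per list, and 30 fixed genes. Some genes that this rule names are not reported here. The members and lists were chosen with earlier results of these data known. Lists share members, such as ATF3 in the ATF4 and immediate early lists and VEGFA in the ATF4, hormone and hypoxia lists.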

Additional observations from a re-analysis of the deposited data

Results flagged for a closer look

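The interaction is itself the test that the doxycycline effects with and without A-485 differ (edgeR quasi-likelihood, adjusted p under 0.05 over all genes), and it singled out 119 genes higher and 81 lower beyond 2-fold. In 4 of the named genes doxycycline raised the level in A-485-treated cells and lowered it otherwise, by a log2 change of at least 0.5 each way: CCL20 (interaction 1.77), ANKRD1 (1.75), DUSP1 (1.43) and ADM (1.41). In 4 others doxycycline lowered the level in A-485-treated cells and raised it otherwise by at least as much: TXNIP (-2.96), ARRDC4 (-1.98), IL1RN (-1.43) and HAL (-1.11). All 8 were called in the same direction with all 12 libraries. Their sign there was fixed in advance, because the naming rule admitted only genes with the same sign in that fit. That fit also contains every library used for the values above, so these calls are not an independent check. Of all genes with opposite effects of this size, named or not, 10 of 18 that rose with A-485 and 8 of 12 that fell with it were called the same way.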

How the results depend on the processing

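Including Dox replicate 1 moved the calls most: 169 genes higher and 179 lower, of which 49 and 39 beyond 2-fold, in place of 2939, 3597, 119 and 81. The cause of its deviation was not tested. Of 99 named genes, 38 kept direction and side of the threshold with it, 51 lost the call and 10 changed sign, at SHMT2 -0.14, DARS -0.39, MT-ND4 -0.29, MT-ND6 -0.0644, MT-RNR1 -0.27, HDAC5 -0.0591, HDAC11 -0.0919, MT-ND1 -0.49, CREBBP 0.20 and EP300 0.25. With library totals alone 1940 genes were higher, 27.1% of calls in place of 45.0%, the median interaction was -0.10 in place of -0.02, and HSPD1 was at -0.00305. With a mean of at least 5 CPM, which leaves fewer genes, 51 and 27 genes were higher and lower beyond 2-fold, and the doxycycline effect passed 2-fold in 117 genes with A-485 and 156 without. As CPM differences between the doxycycline effects, 18 named genes had the other sign: CHAC1 0.548, INHBE -84.8, ADM2 5.65, MTHFD2 -113.1, PHGDH -207, SHMT2 -84.7, SLC7A5 -222, SLC1A4 -31.2, MT-CYB 174, MT-RNR1 -1741, GRPEL2 -3.65, NR0B2 9.23, NR1H4 -70.7, PCK1 21.2, HK1 -6.67, DDIT3 2.44, SESN2 18.1 and CREBBP 7.16. Libraries with the same replicate number did not deviate together (15 pairs without Dox replicate 1, r -0.05 to 0.01). Spread within groups was so small that this comparison cannot decide whether the numbers pair them. With the replicate number as a block 2873 genes were higher and 3535 lower, 116 and 86 beyond 2-fold. DESeq2 and limma-voom each kept direction and side of the threshold for 97 named genes, and leaving out 1 library did so for 93 to 97. Depth limits genes under about 1 CPM in a group, whose interactions had wide errors.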

Other observations

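The genes named here from gene lists not described above were chosen after their values were seen, and the counts below stand against 21.8% of all genes called higher and 26.6% called lower. Of 16 hypoxia-inducible genes, which respond to the oxygen-sensing factor HIF, 15 were called higher, with a median of 0.29, and 4 were called higher with all 12 libraries. ANKRD37, a small ankyrin protein, had 17.3, 17.2 and 18.5 CPM in A-485 and Dox, 15.3, 14.4 and 15.02 CPM in A-485, 9.60 and 7.84 CPM in Dox and 12.8, 11.96 and 13.1 CPM in DMSO, an interaction of 0.78, and CA9, a carbonic anhydrase, was at 0.78 (-0.15, not called, with all 12 libraries). Fatty acid synthesis genes, many of them targets of SREBP1, had 7 of 12 members higher and 1, GPAM, lower; SCD, the stearoyl-CoA desaturase, was at 0.84 (1.13, not called, with 12) and FASN, the fatty acid synthase, at 0.04. Of 20 genes of endoplasmic reticulum folding 13 were higher and 6 lower, from -0.88 for ERN1, which encodes the stress sensor IRE1, to 0.88 for MANF, a secreted stress factor. Neither was called with all 12 libraries (-0.57 and 0.35), whereas XBP1, a transcription factor of that response (0.52), was. Of 24 lysosome and autophagy genes 2 were higher and 12 lower, and MAP1LC3B, which encodes the autophagosome protein LC3B, was the member called lower with all 12 libraries (-0.60, -0.58 with 12). KLF6, a Krüppel-like factor, was at 0.95 and was called with 12 libraries, whereas KLF4, at 1.01, was not.

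Among genes under 1 CPM in a group, larger interactions occurred, of which 1 is given here, chosen after its values were seen. C5AR1, the receptor of complement C5a, had 0.463, 0.565 and 0.469 CPM in A-485 and Dox, 0.303, 0.335 and 0.274 CPM in A-485, 3.59 and 3.61 CPM in Dox and 0.315, 0.395 and 0.400 CPM in DMSO. Dox was its high group, and its interaction was -2.56 ± 0.34.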
